A study of Mus musculus with 6 samples.

Results

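Transcripts of 47 genes of DNA replication and mitosis were measured in mouse bone marrow, 24 that act mainly in S phase and 23 that act mainly in mitosis. The genes were picked by symbol for their known roles, with earlier results of these data known, and all 47 were found among the 46333 genes of the files. The 6 RNA-seq libraries were 3 from control mice, labelled negative control, and 3 from mice kept for 4 weeks under chronic unpredictable mild stress (CUMS), a procedure of varied mild stressors used to induce a depression-like state. All 6 came from whole bone marrow cells. Strain, sex, age and the number of animals behind a library are not given in the sources used here, and neither are any genetic changes. The labels do not say that the libraries are separate animals, so the p-values below measure only the spread between these samples, which may be technical. The series title names myelopoiesis, and the question asked here was whether the transcripts of dividing cells differ between stressed and control marrow, and whether the S-phase and mitotic sets do so alike.

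A dividing cell copies its genome in S phase and separates the copies in mitosis. In S phase, origins are licensed by loading the MCM helicase, the helicase is switched on, polymerases copy the strands and enzymes of nucleotide synthesis supply the building blocks. In mitosis, Cdk1 with its cyclins drives entry, motor proteins build the spindle, and a checkpoint holds separation back until every chromosome is attached. Transcription of many S-phase genes is driven by E2F factors, and that of many mitotic genes by complexes that hold Mybl2 or Foxm1 and bind a promoter element called the cell cycle homology region (CHR). In marrow these transcripts come from the dividing precursors of red cells, granulocytes and lymphocytes, since most mature blood cells no longer divide. In bulk RNA, fewer cells of a type and less RNA per cell cannot be told apart.

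The 2 sets differed in their promoters, and the following 4 are shown because they hold the element of their set before the start site and have the smallest p of such members in the comparison below. They are the 250 bases before the RefSeq start (build GRCm38.p6), 5′ to 3′ on the gene's strand, with the matches in capitals. Pola1, the catalytic subunit of DNA polymerase alpha, lies on the minus strand (chrX:93632156-93632405), and Mcm6, a subunit of the replicative helicase, on the minus strand (chr1:128359706-128359955). For these S-phase members the capitals mark E2F sites, of which Pola1 has 1 and Mcm6 has 3, with a pair that overlaps.
Pola1: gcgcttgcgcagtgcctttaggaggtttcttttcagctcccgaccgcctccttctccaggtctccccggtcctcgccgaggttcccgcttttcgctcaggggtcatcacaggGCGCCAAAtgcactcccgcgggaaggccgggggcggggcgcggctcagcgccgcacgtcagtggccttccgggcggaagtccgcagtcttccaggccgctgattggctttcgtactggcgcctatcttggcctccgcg
Mcm6: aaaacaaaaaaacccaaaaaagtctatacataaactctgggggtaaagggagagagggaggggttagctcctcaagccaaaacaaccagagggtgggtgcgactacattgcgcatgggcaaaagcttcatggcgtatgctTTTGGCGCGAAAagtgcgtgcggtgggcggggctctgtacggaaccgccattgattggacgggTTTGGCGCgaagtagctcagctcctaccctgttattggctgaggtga
Kif11, the motor that pushes spindle poles apart, lies on the plus strand (chr19:37376132-37376381), and Top2a, the topoisomerase that untangles sister chromosomes, on the minus strand (chr11:99024190-99024439). For these mitotic members the capitals mark CHR elements, of which Kif11 has 1 and Top2a has 4.
Kif11: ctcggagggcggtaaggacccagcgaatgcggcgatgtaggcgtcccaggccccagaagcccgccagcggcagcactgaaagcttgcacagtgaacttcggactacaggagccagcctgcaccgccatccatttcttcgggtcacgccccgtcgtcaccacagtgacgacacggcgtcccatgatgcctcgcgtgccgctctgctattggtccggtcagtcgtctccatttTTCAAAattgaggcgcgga
Top2a: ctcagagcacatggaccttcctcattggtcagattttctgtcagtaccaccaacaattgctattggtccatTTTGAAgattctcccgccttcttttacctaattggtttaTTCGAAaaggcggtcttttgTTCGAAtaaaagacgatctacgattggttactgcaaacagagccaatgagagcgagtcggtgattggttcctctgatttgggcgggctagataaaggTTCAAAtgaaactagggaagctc

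A RefSeq promoter window of 300 bases, from 250 before to 50 after the start, was at hand for 38 members, 20 of the S-phase and 18 of the mitotic set. These members had 40 windows, and a member with more than 1 was counted if any of them matched. The shares of all windows count each window by itself. An E2F site, searched on both strands as TTTCCCGC, TTTGGCGC, TTTCGCGC or TTTGCCGC, was in the window of 9 of 20 S-phase members (45.0%) and of 1 of 18 mitotic members (5.56%), the latter being Cdk1. It was in 2.26% of all 32851 windows. The 9 were Cdc6, Cdt1, E2f2, Mcm3, Mcm5, Mcm6, Mcm7, Orc1 and Pola1. A CHR element, searched on both strands as TTTGAA or TTCGAA, was found for 13 of 18 mitotic members (72.2%) and 4 of 20 S-phase members (20.0%), beside 19.2% of all windows. The letters CCAAT, on either strand, were found for 15 of 18 mitotic members (83.3%) and 14 of 20 S-phase members (70.0%), beside 37.4% of all windows. All 13 mitotic members with a CHR element also held CCAAT in that window, and so did all 4 such S-phase members. The combination was thus found for 72.2% of the mitotic and 20.0% of the S-phase members, beside 7.52% of all windows. Matches of different motifs overlapped in 1 place among the members. A match describes these letters and is not a measured binding site.

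Levels were read as FPKM, fragments scaled by transcript length and library size, a unit inferred from the values. That scaling is meant to let levels be compared between genes. A difference between libraries that went with transcript length, described below, limits such comparisons. In control marrow the mean level ran from 10.4 FPKM for Orc1, a subunit of the origin recognition complex, to 308 FPKM for Pcna, the sliding clamp of the polymerases. Below Pcna came Ube2c, the ubiquitin-conjugating enzyme of the anaphase-promoting complex, at 239.8 ± 23.2 FPKM (SD, n = 3), and Rrm2, the regulated subunit of ribonucleotide reductase, at 148 ± 5.70 FPKM (SD, n = 3). In the order of the 47 control levels, 42 of 46 neighbouring pairs had overlapping libraries, so most places in the order are not separated beyond the spread. Together the members took 0.458% to 0.481% of the summed FPKM in control libraries and 0.504% to 0.537% in CUMS libraries.

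Some members share sequence with other genes, and whether the authors counted by strand is not stated in the sources used here. In the GENCODE M21 annotation, 67.3% of the exon bases of Gins2 lie under exons of Gse1 on the opposite strand. The same share was 29.3% for Kif20a (Cdc23), 22.8% for Ube2c (Tnnc2), 17.4% for Ccne2 (Ints8) and 12.5% for Ccna2 (Exosc9). The pseudogene Pcna-ps2 was listed at 6.43 to 8.08 FPKM, beside 283 to 356 FPKM for Pcna. Values of these genes are uncertain to that extent.

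**Figure D1:**
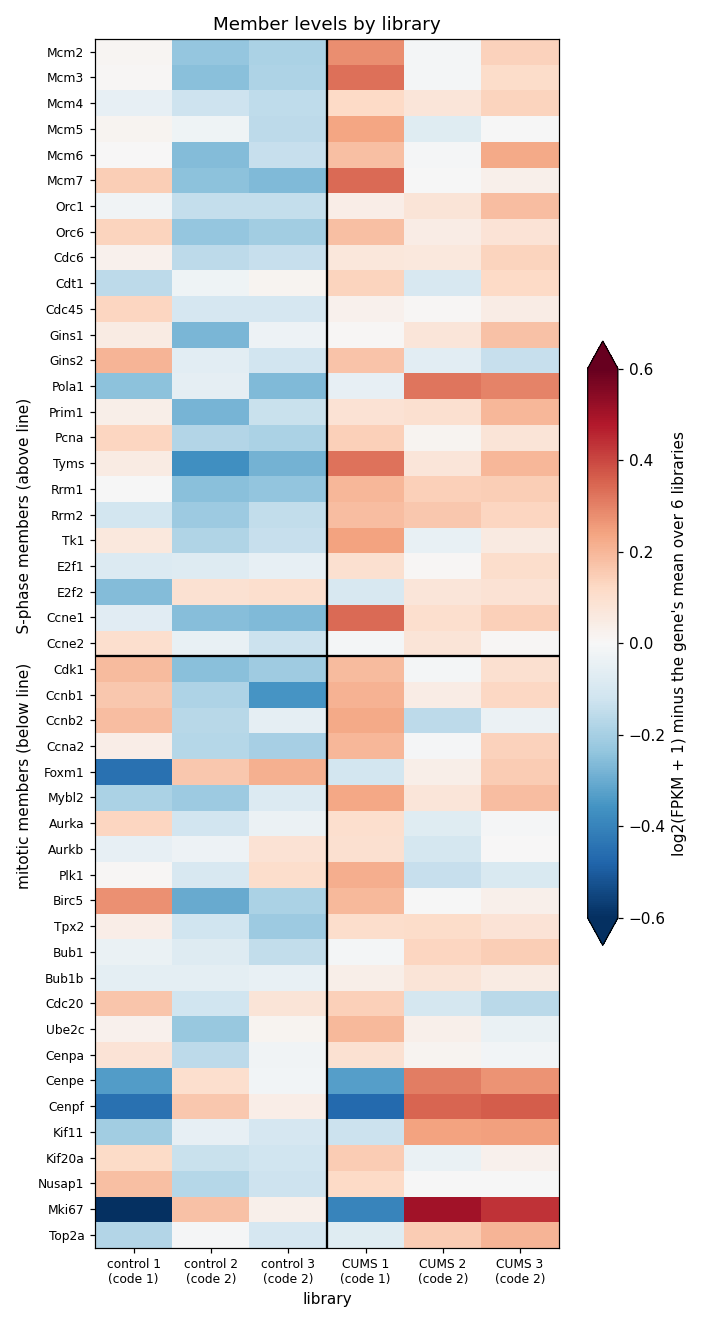
Heat map of the 47 members (rows, S-phase above the line, mitotic below) in the 6 libraries (columns, with the header code), coloured by log2(FPKM + 1) minus the gene's mean over the 6 libraries, with colours saturating at the ends of the scale. Most members are redder in the 3 CUMS columns, while Mki67, Cenpe, Cenpf and Foxm1 are blue in the code 1 columns (Mki67 at 65.8 FPKM in control replicate 1 and 84.1 FPKM in CUMS replicate 1).

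A difference that does not follow the groups ran through these values. Each file header holds a code, which is 1 in replicate 1 of both groups and 2 in the remaining 4 libraries, and no source explains it. By limma, 3747 of 12302 tested genes (30.5%) differed between the codes at an adjusted p under 0.05, and so did 21 of 47 members, 15 of them lower and 6 higher with code 2. The 6 were Mki67, Cenpf, Cenpe, Foxm1, E2f2 and Kif11. Mki67, the proliferation antigen Ki-67 that coats mitotic chromosomes, differed most, being higher with code 2 by 0.86 on the log2 scale (adjusted p = 0.000395 by limma). Mcm7 was lower with code 2 by a log2 difference of -0.37 and Birc5 by -0.35.

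The code difference followed transcript length among the mitotic members. Spearman's rho of transcript length with the log2 difference was 0.70 over the 23 mitotic members, 0.15 over the 24 S-phase members and 0.65 over 10387 tested genes, as a description of libraries that all these genes share. All 12 members with transcripts under 2000 nt were lower with code 2 (median -0.19), beside 2434 of 2905 tested genes of that length (median -0.19). Of the 24 members between 2000 and 4000 nt, 21 were lower (median -0.16), beside 2481 of 4216 tested genes (median -0.04). Of the 11 members from 4000 nt up, 3 were lower, and the median was 0.25. Among tested genes of that length 480 of 3266 were lower, with a median of 0.24. Transcript length also went with the change between groups among the mitotic members (rho 0.51), beside 0.07 for the S-phase members and 0.13 over all tested genes, and its part in the result was not tested.

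**Figure D2:**
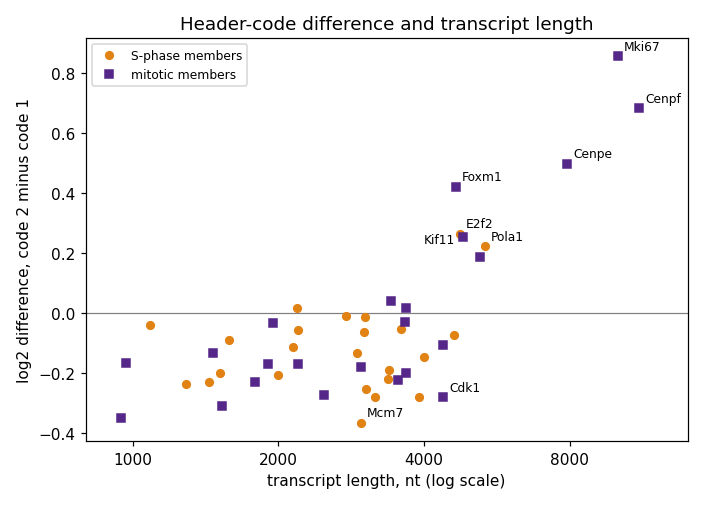
Log2 difference between the 4 libraries with header code 2 and the 2 with code 1 (vertical axis) against transcript length in nt on a log axis (horizontal), 1 point for each member, circles for S-phase and squares for mitotic members. The longest transcripts, Cenpf, Mki67 and Cenpe, lie highest, between 0.50 and 0.86, and all 12 members under 2000 nt lie below 0.

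No member passed the test of CUMS against control with group as the only term, in limma on log2(FPKM + 1) with Benjamini-Hochberg adjustment over 12302 tested genes and a threshold of 0.05. That test called 132 genes of the table (1.07%). All 47 members passed the filter on low values. The lowest adjusted p was 0.138 among the S-phase members (Rrm2 and Ccne1) and 0.151 among the mitotic members (Mybl2). At an unadjusted p under 0.05 there were 11 members, 10 of the S-phase set and 1 of the mitotic set, all higher in CUMS, beside 7.02% of tested genes that were higher at that p. The fitted value was above 0 for 23 of 24 S-phase members and 20 of 23 mitotic members, beside 49.7% of all tested genes. The median log2 change was 0.20 for the S-phase members and 0.15 for the mitotic members, beside -0.0017 for all tested genes. With the libraries scaled to the same total, 23 S-phase and 18 mitotic members were above 0, and the median of all tested genes was -0.0359.

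With the header code as a term in the model the fitted changes were the same, because each group has 1 library with code 1, but their standard errors were smaller for most members. In that fit 9 S-phase members (Mcm2, Mcm3, Mcm4, Mcm7, Tyms, Rrm1, Rrm2, Ccne1 and Pola1) and 2 mitotic members (Mki67 and Mybl2) rose in CUMS at an adjusted p under 0.05, beside 6.06% of tested genes. With the replicate number as a block 5 S-phase members (Mcm3, Tyms, Rrm1, Rrm2 and Ccne1) and the same 2 mitotic members rose, beside 3.49% of tested genes. In the 4 libraries with code 2 alone, 14 S-phase and 9 mitotic members rose, beside 8.82% of tested genes. No member fell in any of these fits. No source says that the replicate numbers pair the libraries.

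The libraries were also compared without a model. All 3 CUMS libraries lay above all 3 control libraries for 10 S-phase and 4 mitotic members, as they did for 10.0% of tested genes, and no member had all 3 below, beside 12.1% of tested genes. Among the 4 libraries with code 2, both CUMS libraries lay above both control libraries for 20 S-phase and 16 mitotic members, beside 31.7% of tested genes. Both lay below for E2f2 and Foxm1. In the pair of libraries with code 1 the CUMS library was the higher for 20 S-phase and 18 mitotic members, with a median log2 difference of 0.18 and 0.05. In the libraries with code 2 the medians were 0.27 and 0.23. Over all tested genes the median was -0.0204 in the pair with code 1 and 0.005 with code 2. The change was above 0 in both codes for 19 S-phase and 15 mitotic members, beside 31.1% of tested genes.

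**Figure D3:**
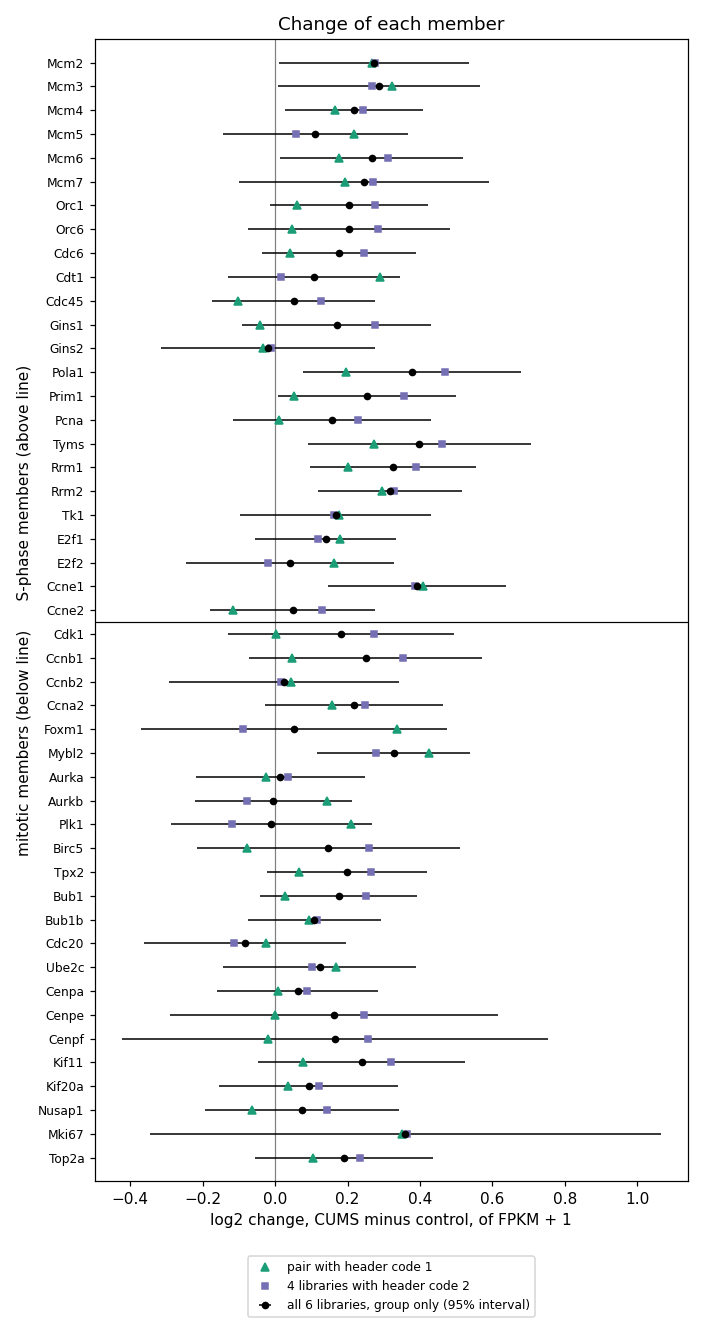
Log2 change of each member, CUMS minus control, of FPKM + 1 (horizontal axis), from all 6 libraries with its 95% interval (black circles and lines), from the pair with header code 1 (triangles) and from the 4 libraries with code 2 (squares). Of the 47 black circles, 43 lie above 0, and the interval of Mki67, from -0.35 to 1.06, is the widest.

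Among the roles of the S-phase members, the 4 enzymes of nucleotide supply had the highest median log2 change (0.32), with single values from 0.17 to 0.40, and the roles were not tested against each other. Rrm2 (chr12:24708241-24714146), the subunit of ribonucleotide reductase whose amount follows the cell cycle, was at 154, 142 and 149.5 FPKM in control replicates 1 to 3 and at 189, 186 and 181 FPKM in CUMS. Its groups did not overlap, and the log2 change was 0.32 ± 0.09 (SE), with an adjusted p of 0.138 by limma with group only, 0.0362 with the replicate block and 0.0118 with the header code. Rrm1 (chr7:102441695-102469771), the large subunit of the same enzyme, was at 86.8, 72.9 and 73.6 FPKM in control and 99.9, 96.0 and 96.3 FPKM in CUMS. Again every CUMS library was above every control library, by a log2 change of 0.33 ± 0.10 (SE). Its limma adjusted p was 0.179, and 0.043 with the replicate block.

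Tyms (chr5:30058202-30073617), thymidylate synthase, which makes the thymidine nucleotide anew, was at 18.9, 13.9 and 14.8 FPKM in control and 23.1, 19.2 and 21.1 FPKM in CUMS. The groups were separated by a narrow gap, because control replicate 1, with code 1, was the highest control. The log2 change of 0.40 ± 0.13 (SE) was the largest of all 47, with a limma adjusted p of 0.216, and 0.0298 with the replicate block. Tk1, the thymidine kinase of the salvage route, overlapped between groups, at 90.8, 76.5 and 78.9 FPKM in control and 103, 84.1 and 90.1 FPKM in CUMS. It did not pass the test in any of the 4 fits above.

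The 6 subunits of the MCM2-7 helicase, which unwinds DNA at the fork, were all higher in the mean, by log2 changes of 0.11 to 0.29. Mcm3 (chr1:20802968-20820312) was at 71.0, 59.1 and 62.1 FPKM in control and 89.1, 70.1 and 76.4 FPKM in CUMS. Control replicate 1 lay above CUMS replicate 2, so the groups overlapped, while within each header code the CUMS libraries were higher. Its log2 change was 0.29 ± 0.12 (SE), with a limma adjusted p of 0.316, and 0.0466 with the replicate block. Mcm2 was at 75.4, 63.4 and 65.3 FPKM in control and 90.9, 74.2 and 82.4 FPKM in CUMS, with the same overlap through control replicate 1, and its adjusted p with the header code was 0.029.

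Mcm4 was the only subunit whose groups did not overlap, at 43.5, 41.1 and 40.3 FPKM in control and 48.9, 47.4 and 49.5 FPKM in CUMS. Mcm6 was at 84.1, 69.9 and 76.2 FPKM in control and 95.2, 83.6 and 98.6 FPKM in CUMS, a log2 change of 0.27 ± 0.11 (SE), and of these 4 fits it passed that with code 2 alone. Mcm7, the most abundant of the 6, was at 141, 107 and 106 FPKM in control and 162, 127 and 130.1 FPKM in CUMS, and in both groups the library with code 1 was the highest. Mcm5 had the smallest difference, at 82.9 ± 5.28 FPKM in control and 89.9 ± 10.4 FPKM in CUMS (SD, n = 3), and passed in none of the 4 fits.

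Of the copying enzymes, Pola1 (chrX:93304767-93632155) was at 10.5, 12.1 and 10.3 FPKM in control and 12.1, 16.0 and 15.7 FPKM in CUMS. The groups were separated by a hair, between control replicate 2 and CUMS replicate 1, and the log2 change was 0.38 ± 0.13 (SE), with a limma adjusted p of 0.225, and 0.0311 with the header code. Prim1, the catalytic primase subunit that lays the first primer, was at 32.5, 25.9 and 28.8 FPKM in control and 33.7, 33.9 and 36.6 FPKM in CUMS. Every CUMS library was higher, but the pair with code 1 differed by a log2 value of 0.05, and Prim1 passed only with code 2 alone (limma adjusted p = 0.0223). Pcna (chr2:132249162-132253314) was at 354, 286 and 283 FPKM in control and 356, 327 and 341 FPKM in CUMS. The pair with code 1 was nearly equal there too, and Pcna passed only in the 4 libraries with code 2 (limma adjusted p = 0.0274).

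The 4 licensing factors, which load the helicase onto origins, had log2 changes of 0.11 to 0.20. Cdc6, the loading ATPase, was at 21.4, 18.8 and 19.0 FPKM in control and 22.1, 22.0 and 23.1 FPKM in CUMS, and Orc1 at 11.0, 10.0 and 10.0 FPKM in control and 11.5, 11.8 and 12.8 FPKM in CUMS. Neither overlapped between groups, and neither passed with all 6 libraries. Orc6, a small subunit of the origin complex, was at 22.2 ± 3.43 FPKM in control and 25.5 ± 1.32 FPKM in CUMS, and Cdt1, the loader that is destroyed once S phase begins, at 39.3 ± 2.50 and 42.4 ± 3.77 FPKM (SD, n = 3). The 3 genes of helicase activation overlapped between groups. Gins1 was at 18.0 ± 2.15 FPKM in control and 20.4 ± 1.29 FPKM in CUMS, Cdc45 at 26.9 ± 2.62 and 27.8 ± 0.35 FPKM, and Gins2 at 19.1 ± 2.46 and 18.8 ± 2.26 FPKM (SD, n = 3), the only S-phase member with a lower mean in CUMS. In these roles Cdc6 and Orc6 passed with code 2 alone, and the others in none of the 4 fits.

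The 4 regulators of S-phase entry had log2 changes of 0.04 to 0.39. Ccne1 (chr7:38097984-38107534), cyclin E1, which activates Cdk2 at the start of S phase, was at 30.3, 26.5 and 26.2 FPKM in control and 40.5, 34.2 and 35.2 FPKM in CUMS. All CUMS libraries lay above all controls, and the change was alike in the pair with code 1 (0.41) and in the libraries with code 2 (0.38). The log2 change was 0.39 ± 0.11 (SE), with a limma adjusted p of 0.138, 0.0221 with the replicate block and 0.00626 with the header code. Ccne2, cyclin E2, was at 14.6, 13.1 and 12.3 FPKM in control and 13.4, 14.4 and 13.6 FPKM in CUMS, with overlapping groups and a log2 change of 0.05 ± 0.10 (SE).

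E2f1, an activator of S-phase genes, was at 19.1, 19.2 and 19.6 FPKM in control and 21.8, 20.4 and 21.9 FPKM in CUMS. The groups did not overlap, but the log2 change of 0.14 ± 0.08 (SE) passed in none of the 4 fits (limma adjusted p = 0.485 with group only). E2f2, an activator that is abundant in red cell precursors, was at 85.3, 109 and 109.8 FPKM in control and 95.6, 107.5 and 108.5 FPKM in CUMS. Its values followed the header code rather than the group, and with code 2 alone the change was -0.02.

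Among the mitotic members Mybl2 and Mki67 passed with all 6 libraries in the fits with the block or the header code. When the header code was joined to median-of-ratios scaling, Ccna2 and Kif11 passed as well (limma adjusted p = 0.0453 and 0.0391). Mybl2 (chr2:163054687-163084688), the MYB factor that works with E2F and CHR-binding complexes, was at 21.8, 21.4 and 23.6 FPKM in control and 29.6, 26.4 and 28.6 FPKM in CUMS. The groups did not overlap, and it was the mitotic member with the smallest p, at a log2 change of 0.33 ± 0.09 (SE) and a limma adjusted p of 0.151 with group only and 0.0427 with the replicate block. Its transcripts accumulate earlier in the cycle than those of most of the mitotic set. Foxm1, the forkhead factor of mitotic transcription, was at 13.3, 20.8 and 21.6 FPKM in control and 17.1, 19.1 and 20.8 FPKM in CUMS. Its change was 0.34 in the pair with code 1 and -0.09 in the libraries with code 2.

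Mki67 (chr7:135689784-135716361) was at 65.8, 126 and 114 FPKM in control and 84.1, 158 and 150.2 FPKM in CUMS. The groups overlapped because both libraries with code 1 were far below the others, while within each code every CUMS library was above every control library. The log2 change was 0.36 both over all libraries and with code 2 alone, and 0.35 in the pair with code 1. Leaving out any 1 library unbalances the codes between the groups. The change was then 0.08 without control replicate 1 and 0.65 without CUMS replicate 1. Without CUMS replicate 2 or 3 it was 0.20 and 0.23, and without control replicate 2 or 3 it was 0.54 and 0.46. Its standard error was 0.30 with group only and 0.06 with the header code, and the limma adjusted p went from 0.634 to 0.0117 (0.0251 with the replicate block). Top2a was at 94.5, 106 and 99.5 FPKM in control and 102, 119 and 123 FPKM in CUMS, a log2 change of 0.19 ± 0.11 (SE), and Kif11 at 42.5, 47.5 and 45.7 FPKM in control and 44.9, 58.2 and 58.5 FPKM in CUMS. Of the 4 fits both passed that with code 2 alone (limma adjusted p = 0.0358 and 0.0134). Kif20a, a kinesin of cell separation, was at 28.5 ± 2.95 FPKM in control and 30.4 ± 2.13 FPKM in CUMS, and Nusap1, a spindle microtubule binder, at 54.9 ± 7.66 and 57.5 ± 2.90 FPKM (SD, n = 3), neither of which passed.

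The kinase of mitotic entry and its cyclins had log2 changes of 0.03 to 0.25. Cdk1 was at 36.3, 26.5 and 27.3 FPKM in control and 36.3, 31.5 and 34.0 FPKM in CUMS, so that the pair with code 1 was equal and the other libraries were higher in CUMS. Ccnb1, cyclin B1, was at 68.8, 54.0 and 47.9 FPKM in control and 71.1, 63.4 and 67.1 FPKM in CUMS, a log2 change of 0.25 ± 0.14 (SE). Ccnb2, cyclin B2, was at 105, 82.0 and 88.7 FPKM in control and 108, 82.5 and 90.1 FPKM in CUMS, almost the same in each replicate number. Ccna2, cyclin A2, which works in S phase and at mitotic entry, was at 95.3, 82.2 and 80.5 FPKM in control and 106, 92.1 and 102 FPKM in CUMS. Of the 4 fits Cdk1, Ccnb1 and Ccna2 passed that with code 2 alone, and Ccnb2 passed none.

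The mitotic kinases had close means in both groups. Aurka was at 42.9 ± 3.79 FPKM in control and 43.2 ± 2.71 FPKM in CUMS, Aurkb at 45.9 ± 2.43 and 45.8 ± 3.24 FPKM, and Plk1 at 46.7 ± 3.31 and 46.6 ± 6.63 FPKM (SD, n = 3). The 95% intervals of their log2 changes still reached from -0.29 to 0.27 for Plk1 and from -0.22 to 0.25 for Aurka. Birc5, survivin, a partner of Aurkb at the centromere, was at 118 ± 26.3 FPKM in control and 129 ± 9.84 FPKM in CUMS, and its pair with code 1 was lower in CUMS. Tpx2, the activator of Aurka on the spindle, was at 44.1, 39.4 and 36.7 FPKM in control and 46.2, 46.4 and 45.4 FPKM in CUMS, with groups that did not overlap and a limma adjusted p of 0.374. Birc5 and Tpx2 passed with code 2 alone.

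Both checkpoint kinases had separate groups with small changes. Bub1 was at 13.2, 12.9 and 12.2 FPKM in control and 13.5, 15.0 and 15.2 FPKM in CUMS, and Bub1b, which encodes BubR1, at 30.5, 30.4 and 30.8 FPKM in control and 32.6, 33.6 and 32.9 FPKM in CUMS. Their log2 changes were 0.18 ± 0.09 and 0.11 ± 0.08 (SE), and neither passed in any of the 4 fits. Cdc20, the activator of the anaphase-promoting complex, had the lowest change of all members, -0.08 ± 0.12 (SE), at 67.7 ± 6.90 FPKM in control and 63.9 ± 7.47 FPKM in CUMS (SD, n = 3), and Ube2c was at 260.9 ± 22.1 FPKM in CUMS with a change of 0.12 ± 0.11 (SE). At the centromere, Cenpa, its histone variant, was at 84.9 ± 7.09 FPKM in control and 88.5 ± 3.50 FPKM in CUMS. The kinetochore proteins Cenpe (9.61, 13.3 and 12.2 FPKM in control, 9.62, 15.6 and 15.1 FPKM in CUMS) and Cenpf (7.77, 12.3 and 11.3 FPKM, then 7.65, 14.2 and 14.4 FPKM) followed the header code, with an equal pair in code 1 and higher CUMS values in code 2.

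As sets, both phases had higher levels in every CUMS library than in any control library. The mean log2(FPKM + 1) of the S-phase members was 5.46, 5.30 and 5.31 in control and 5.61, 5.51 and 5.57 in CUMS, a difference of 0.20. That of the mitotic members was 5.55, 5.51 and 5.53 in control and 5.64, 5.66 and 5.69 in CUMS, a difference of 0.13. The summed level of the S-phase members was 1440.4 ± 108 FPKM in control and 1664 ± 82.6 FPKM in CUMS, and that of the mitotic members 1388 ± 60.6 and 1527 ± 16.6 FPKM (SD, n = 3). As the members were listed with results of these libraries known, these set levels are a description without a test.

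The change of the S-phase members relative to the mitotic members was small beside the spread over all 6 libraries, though of 1 direction within the header codes. The S-phase mean minus the mitotic mean was -0.08, -0.21 and -0.22 in control and -0.03, -0.15 and -0.12 in CUMS. The groups overlapped, with a mean of -0.17 ± 0.08 in control and -0.10 ± 0.06 in CUMS (SD, n = 3). Within each header code the CUMS values were the higher, and in both groups the library with code 1 had the highest value.

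**Figure D4:**
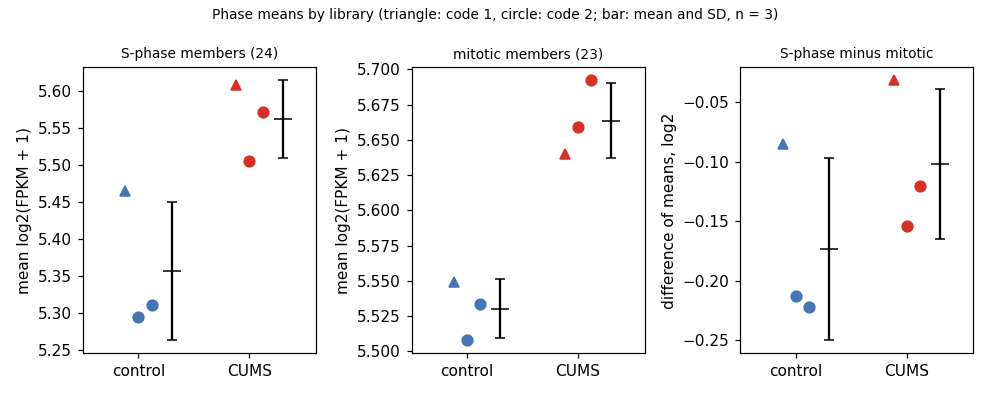
Mean log2(FPKM + 1) of the 24 S-phase members (left), of the 23 mitotic members (middle) and their difference (right) in each library, triangles for header code 1 and circles for code 2, blue for control and red for CUMS, with the group mean and SD (n = 3) in black; the vertical axes do not start at 0. CUMS lies above control in the first panels (5.51 to 5.61 against 5.30 to 5.46, and 5.64 to 5.69 against 5.51 to 5.55), and the groups overlap in the last.

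Related genes were compared within the libraries in 4 pairs, as the log2 ratio of FPKM + 1 of the first gene to that of the second. The test was an exact two-sided permutation test, which cannot go below 0.1 with 3 against 3 libraries. Ccne1 exceeded Ccne2 by a log2 ratio of 1.00 ± 0.04 in control and 1.34 ± 0.17 in CUMS (SD, n = 3), and the groups did not overlap (exact permutation p = 0.1, adjusted over 4 pairs 0.4). Ccnb1 relative to Ccnb2 stood at -0.69 ± 0.16 and -0.47 ± 0.12 (SD; exact permutation p = 0.2, adjusted 0.4), with overlapping groups. The ratio of E2f1 to E2f2 differed by 0.10 between groups (exact permutation p = 0.5, adjusted 0.667) and that of Aurka to Aurkb by 0.02 (exact permutation p = 1).

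Further genes of the cell cycle were read from lists that do not share the members. Of 40 other replication factors, 38 had a fitted value above 0, with a median of 0.19. None passed limma with group only (6 at an unadjusted p under 0.05), and 6 rose with the header code as a term. Over all tested genes, 6.06% rose with the header code. An unadjusted p under 0.05 was reached by 1898 of 12302 tested genes in either direction. These shares also stand beside the counts of the lists that follow in this paragraph. Clspn, the claspin that links the fork to the checkpoint kinase, was at 13.4 ± 0.47 FPKM in control and 17.5 ± 1.59 FPKM in CUMS (SD, n = 3), and it also rose with the replicate block (limma adjusted p = 0.0346). Of 52 other mitotic factors, 44 were above 0 with a median of 0.12. None passed with group only (8 at an unadjusted p under 0.05) or with the block, and 8 rose with the header code, among them the kinesins Kif18a and Kif4. Of 15 tested G1 cyclins, kinases and growth inputs, 12 were above 0 with a median of 0.11. None passed with group only (2 at an unadjusted p under 0.05), and 3 rose with the header code, among them Ccnd2 and Myc. With the replicate block 1 of this list rose (Ccnd2), beside 3.49% of tested genes. With code 2 alone 0 of this list rose, and 13 of the replication and 15 of the mitotic factors did, beside 8.82% of tested genes.

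The inhibitors and brakes of the cycle did not share that direction, with 11 of 23 tested genes above 0 and a median of -0.02. None passed limma with group only. At an unadjusted p under 0.05 there were 4, beside 1898 of 12302 tested genes in either direction. With the replicate block 2 fell, beside 4.31% of tested genes. With the header code 2 rose, beside 6.06% of tested genes, and 2 fell, beside 7.31%. Ccng2, a cyclin of arrested cells, was at 30.6, 30.3 and 29.5 FPKM in control and 21.8, 21.5 and 22.8 FPKM in CUMS, with a log2 change of -0.44 ± 0.08 (SE) and a limma adjusted p of 0.06 with group only and 0.0189 with the block. Fzr1, which encodes the Cdh1 activator that keeps the anaphase-promoting complex on in G1, was at 104, 93.7 and 101 FPKM in control and 88.7, 70.7 and 74.6 FPKM in CUMS, with an adjusted p of 0.0356 with the block by limma. In both genes every CUMS library was below every control library, as in 4 of the 23 tested genes of the list, beside 12.1% of tested genes. For 1 gene of the list every CUMS library was above every control library, beside 10.0% of tested genes.

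Markers of the marrow's cell types are given beside the members, and their part in the result was not tested. All 12 erythroblast markers had a fitted value above 0 (median 0.16, summed level 104900 to 124200 FPKM in control and 121100 to 149600 FPKM in CUMS), and haemoglobin transcripts made up 28.8% to 29.2% of all FPKM in control and 31.7% to 35.3% in CUMS. All 10 promyelocyte markers were above 0 (median 0.24, 1839 to 2551 and 2217 to 2964 FPKM). Neither list had a gene that passed limma with group only (2 at an unadjusted p under 0.05 in each). With the header code 2 and 5 genes rose, beside 6.06% of tested genes. An unadjusted p under 0.05 was reached by 1898 of 12302 tested genes in either direction. Of 12 markers of pro-B and pre-B cells, which also divide, 3 were above 0 (median -0.29, 539 to 638 and 449 to 511 FPKM). None passed with group only (6 at an unadjusted p under 0.05). With the header code 7 fell, beside 7.31% of tested genes, and 1, Il7r, rose. The stem and progenitor markers had 4 of 7 above 0 (median 0.11).

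Lists of other cells were read in the same way. The median was -0.11 for 9 myelocyte and metamyelocyte markers, -0.16 for 8 mature neutrophil markers, -0.26 for 7 monocyte markers, -0.22 for 5 plasma cell markers and 0.34 for 7 osteoblast and stromal markers. With group only, 2 monocyte markers fell (Cx3cr1 and Csf1r) and 1 stromal marker rose (Col1a2), beside 1.07% of tested genes called in either direction. None of the 5 skeletal muscle markers passed the filter, with a summed level of 2.61 to 3.13 FPKM. Genes that respond within minutes to handling of the tissue were higher, with 7 of 7 tested above 0 (median 0.89, 508 to 524 FPKM in control and 786 to 889 FPKM in CUMS), and 4 rose with group only. Their summed levels did not overlap between groups, as with the members' sets, and their part was not tested either.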

How the data were processed

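RNA of 3 control and 3 CUMS bone marrow samples was sequenced as paired reads of 151 bp. Per the submitters' processing notes the build was mm10 and the tools were DESeq2 2.11.40.6, featureCounts 1.6.4, HISAT2 2.1, bcl2fastq 2.19 and cutadapt 1.16.5, without saying which of them made the files. The deposited values were read as FPKM from their form, since no source names the unit: they are not whole, have no common step, and sum to 561563 to 658595 per library. Depth in reads is not given, so there are no counting intervals, and precision rests on the spread between libraries.

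The 12302 of 47561 entries that reached 1 FPKM in 3 or more of the 6 libraries were tested with limma 3.58.1 (R 4.3.3) with a mean-variance trend on log2(FPKM + 1), group as the only term, and Benjamini-Hochberg adjustment over all tested genes. The fit was run first on simulated data with planted changes larger than that of any member. That run does not show how often changes of the members' size would be found. A log2 change is CUMS minus control on that scale, which understates the change of low genes. Alternatives were the pseudocount, the filter, 4 scalings, no trend, the replicate number as a block, the header code as a term, code 2 alone, and each library left out. Another 4, the block or the code joined to a scaling, were chosen after seeing the data.

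For libraries that share a replicate number, deviations from the group mean had correlations of 0.69, 0.45 and 0.36 over the tested genes, and crossing replicates 2 and 3 gave 0.46 and 0.36. The data set replicate 1 apart from the others and do not single out the numbering of replicates 2 and 3, and no label states a pairing. Replicate 1 of both groups also shares the header code, and the number and the code cannot be told apart there.

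The members and gene lists were chosen with earlier results of these data known. Values are given in full for a fixed set (Mki67, Top2a, Cdk1, Ccnb1, Ccnb2, Mcm2, Pcna, Rrm2, Tyms, E2f1, E2f2, Ccne1 and Ccne2) and for up to 8 members of each phase with the smallest p. Other members are given by means or values as their groups warrant, and of other lists up to 3 genes with the smallest p are named. Transcript lengths and positions are from GENCODE M21, for the longest APPRIS principal or else the longest coding transcript. Promoters are from RefSeq (GRCm38.p6). Tables and plots used Python 3.11.15, pandas 2.3.3, numpy 2.4.6 and matplotlib 3.10.9.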

Additional observations from a re-analysis of the deposited data

How the results depend on the processing

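Depth was not known, and 3 libraries a group limit every test. The median change of both phases stayed above 0 under all 22 alternatives. The number of genes called, 132 with group only, was 36 with no filter, 199 with quantile normalization, 959 with the replicate block, 1645 with the header code as a term, 2173 with code 2 alone, and 17 to 262 with 1 library left out. The block gave 1147 with median-of-ratios scaling and 1419 with scaling to the same total, and the header code 1691 and 1858. S-phase members called, 0 with group only, were 1 with quantile normalization (Rrm1), 5 with the replicate block, 9 with the header code, 14 with code 2 alone, and 0 to 1 with 1 library left out (Rrm1, without control replicate 1). They were 9 and 5 for the block with median-of-ratios and same-total scaling, and 10 and 8 for the header code. Mitotic members called, 0 with group only, were 2 with the replicate block, 2 with the header code, 9 with code 2 alone, 2 and 1 for the block with the scalings in the same order, and 4 and 2 for the header code. The mitotic median of 0.15 was 0.11 with scaling to the same total, also with the block or the code, 0.19 with that scaling without haemoglobin, 0.23 with code 2 alone, and 0.11 to 0.15 with 1 library left out. Scaling to the same total moved the median of all genes to -0.0359 and the part of the calls that was higher in CUMS from 57.6% to 39.2%. Ccnb2, 0.03 with group only, turned to -0.0149 with scaling to the same total (also with the block or the code), to -0.0524 without control replicate 2 and to -0.0831 without CUMS replicate 1, in a range up to 0.1242 with 1 library left out. E2f2 turned to -0.0185 with code 2 alone and to -0.0765 without control replicate 1, in a range up to 0.1042, and Ccne2 to -0.0052 without control replicate 3. Of 506 values of 23 named members under alternatives, 429 kept their side of the threshold and direction, 69 newly passed and 8 turned direction. With 1 library left out Mki67 ranged from 0.0754 to 0.6468. Fits with fewer libraries estimate the spread from fewer values. The cause of the other differences was not tested.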
